A study of Homo sapiens with 29 samples.

Results

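In 22Rv1 cells, a human prostate carcinoma line, 517 of 166696 accessible regions had a peak in every vehicle library of both doxycycline-induced FOXA1 lines and no peak in any library of these lines after the small molecule WX-02-23. They made up 1.02% of the 50457 regions that could have met this description, which are called eligible below: regions with a peak in all 4 DMSO with Dox libraries, from the WT-FOXA1 and the C258A-FOXA1 line, and in at least 1 of the 2 libraries without Dox. Regions were made by joining the peaks of all 29 deposited lists wherever these overlapped or touched, and a library counts as holding a region if any of its peaks shares 1 bp or more with it. The 517 were chosen from these same libraries, so their presence in the 4 DMSO lists and absence from the 4 WX-02-23 lists is the choice itself and not a finding. The choice did not use whether they had a peak in parental cells or after pladienolide B (PladB).

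Open chromatin was measured by ATAC-seq, an assay whose transposase inserts adapters into accessible DNA, so that peaks of reads mark open sites. The 15 parental libraries, 3 a group, came from unmodified 22Rv1 cells given 0.1% DMSO, 20 µM WX-02-23, 20 µM of its stereoisomer WX-02-43, or PladB at 10 nM or 100 nM, each for 3 h. The 14 engineered libraries, 2 a group, all came from cells that stably overexpress PHF5A carrying Y36C, with WT-FOXA1 or C258A-FOXA1 under doxycycline (Dox) control. Each line with Dox received 0.1% DMSO, 20 µM WX-02-23 or 100 nM PladB for 3 h. The WT-FOXA1 line was also profiled without Dox, given 0.1% DMSO for 3 h. The labels name no deletion of the cells' own FOXA1 and no clone, and they do not say that replicates were separate cultures, so the spread between replicates may be technical.

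FOXA1 is a forkhead pioneer factor that binds closed chromatin, opens it and in prostate cells works beside the androgen receptor at enhancers. WX-02-23 is a covalent small molecule that reacts with the cysteine C258 of FOXA1, a residue that C258A-FOXA1 lacks. PladB binds the splicing factor SF3B1 next to PHF5A, and the Y36C change in PHF5A blunts the response to such splicing ligands.

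The lists held 82538 to 98193 peaks in parental cells and 62832 to 92658 in engineered cells. Read totals were not given, and a relative depth, the background in reads per base read from the authors' fold and p-values, ran from 0.546 to 1.5. Peak names placed the parental lists in one processing folder and the engineered lists in another, so the cell type and this folder cannot be told apart. Treated and DMSO libraries were compared within one of them, and parental and engineered states are only set side by side. The WT-FOXA1 lists were shorter after WX-02-23, with 67815 and 62832 peaks against 88140 and 85009 with DMSO. For C258A-FOXA1 cells the lists after WX-02-23 held 76645 and 92658 peaks against 84260 and 87171. Relative depth in the same order was 0.903 and 1.26 against 0.869 and 0.844 in the WT-FOXA1 line, and 0.648 and 0.917 against 0.75 and 0.866 in the C258A-FOXA1 line. The part of list length and depth in the choice of regions was not tested apart from the alternatives that follow.

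Among the eligible regions, absence in both lines was less frequent than absence in the WT-FOXA1 line alone. The WX-02-23 lists of all 4 libraries held 39445 eligible regions (78.2%). Another 2133 were held by neither WT-FOXA1 library and by both C258A-FOXA1 libraries after WX-02-23, and 78 showed the reverse. Just outside the choice lay 1587 regions held by exactly 1 of the 4 WX-02-23 libraries. Of these, 1171 (73.8%) were held only by C258A-FOXA1 WX-02-23 replicate 2, the longest WX-02-23 list. Without that library 1688 regions met the rule, and without C258A-FOXA1 DMSO replicate 1 it was 839. Which regions met the rule also depended on what counted as a peak: with every list shortened to 62832 peaks, 292 regions met it and 43 of them were among the 517, and with only peaks of fold 6 or more, 494 met it and 45 were shared.

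The 517 regions were weak before treatment. Strength was read as the percentile of a peak's p-value, as the authors gave it, within its own list, averaged over the 4 DMSO with Dox lists. This also describes the libraries that chose the regions and carries no test. Its median over the 517 was 25.9, with the middle 50% between 19.1 and 33.0 and a range of 4.96 to 64.4, against a median of 67.0 over the other 49940 eligible regions. The regions lost in the WT-FOXA1 line alone had a median of 36.7, those just outside the choice 29.7, and those kept in all 4 WX-02-23 lists 74.7. When all eligible regions were ranked by strength into deciles, 366 of the 517 (70.8%) lay in the weakest decile and none in deciles 6 to 10. The strongest 15 reached the 50th percentile or above.

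The median summit of the 517 held 13, 13, 12 and 13 reads in the 4 DMSO with Dox lists, and that of the other eligible regions 28, 27, 26 and 28. The lowest summit that any of the 29 lists called had 5 to 8 reads, so a median member stood a few reads above the limit of detection. Peaks of the 517 were also narrower, with a median width of 220 bp against 365 bp, and their summits moved more between the 4 lists, by a median of 82 bp against 62 bp. Both libraries without Dox held 355 of the 517 (68.7%), against 94.0% of the other eligible regions. In those uninduced lists the median summit had 13 reads in each.

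**Figure D1:**
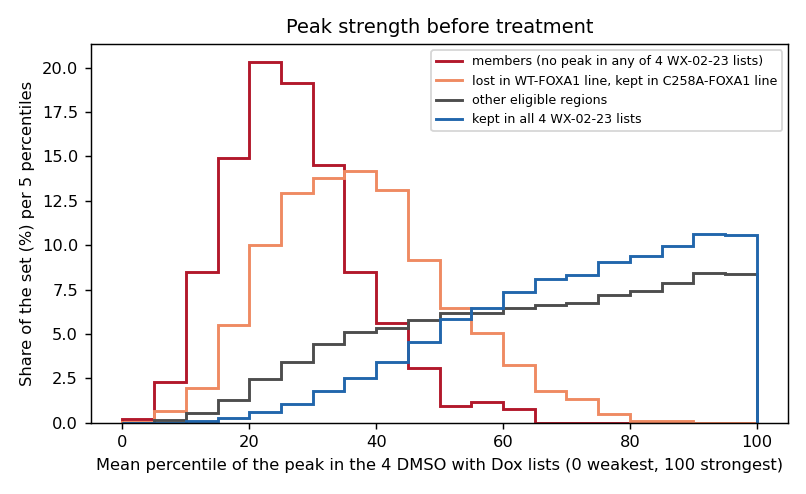
Histogram of peak strength before treatment: the horizontal axis is the mean percentile of a region's peak by p-value in the 4 DMSO with Dox lists, and the vertical axis the share of each set in percent per 5 percentiles. The 517 regions (dark red) are massed at the weak end with a median of 25.9, below the regions lost in the WT-FOXA1 line alone (orange, 36.7) and those kept in all 4 WX-02-23 lists (blue, 74.7).

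Positions are given in build hg19, as in the deposited lists. Genes and sequences at these positions are not analysed here, since no genome or gene annotation of that build was used. The strongest of the 517 was chr12:6198050-6198728, at percentile 64.4. Its summit held 30 and 26 reads in the WT-FOXA1 DMSO lists, 20 and 22 in the C258A-FOXA1 DMSO lists, and 27 and 23 without Dox. The authors' fold over background there averaged 9.05 ± 0.58 (SD, n = 4). The region thus stood well above the detection limit in all 6 lists and had no peak in the 4 WX-02-23 lists.

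The next strongest was chr6:21559775-21560427, with 34 and 23 reads in the WT-FOXA1 DMSO lists, 17 and 21 in the C258A-FOXA1 DMSO lists and 29 in each list without Dox. At chr15:56275914-56276492 the DMSO summits held 15 and 19 reads in the WT-FOXA1 line and 22 and 19 in the C258A-FOXA1 line. At chr19:13101989-13102492 they held 47 and 41 against 23 and 19, so the WT-FOXA1 summits there were the taller ones. The region chr9:131564752-131565322 had 19 and 20 reads in the WT-FOXA1 line and 21 and 20 in the C258A-FOXA1 line.

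At the other end, chr2:234932189-234932669 lay at percentile 4.96, with 9 and 8 reads in the WT-FOXA1 DMSO lists and 7 and 9 in the C258A-FOXA1 lists. The region chr9:976535-977514, at percentile 5.55, had 11, 14, 11 and 10 reads in the same order. Each had a peak in 1 of the 2 lists without Dox.

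After PladB, most of the 517 regions still had a peak in each engineered library, but a smaller share than of all eligible regions. The choice had fixed the share after WX-02-23 at 0. In the WT-FOXA1 line the PladB lists held 281 (54.4%) and 432 (83.6%) of the 517, a mean of 69.0% ± 20.7 (SD, n = 2). The same lists held 93.9% and 98.5% of eligible regions. In the C258A-FOXA1 line the PladB lists held 294 (56.9%) and 316 (61.1%) of the 517, a mean of 59.0% ± 3.01 (SD, n = 2). There the background was 94.1% and 95.2% of eligible regions. The DMSO share was 100% by the choice, so the gap to it is not a measured effect of PladB. The WT-FOXA1 replicates lay further apart than the line means did. The list that held fewer was also the shorter of that pair, with 71121 peaks against 88735, and the C258A-FOXA1 PladB lists had the lowest relative depths of all 29, 0.546 and 0.587. Their part in these shares was not tested. The shares also moved with what counted as a peak: with all lists of equal length they were 40.4% and 34.2%, and with only peaks of fold 6 or more 29.8% and 23.9%, settings that remove weak DMSO peaks of the 517 as well.

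By region, 116 of the 517 (22.4%) had a peak in all 4 PladB libraries, against a background of 87.4% of eligible regions. Only 21 (4.06%) had none in any of the 4, against a background of 0.18%. Neither WT-FOXA1 PladB library held 61 (11.8%, background 0.733%), and neither C258A-FOXA1 PladB library held 104 (20.1%, background 1.78%). Between these ends, 67 were held by 1, 147 by 2 and 166 by 3 PladB libraries. Strength moved with this count: the median percentile was 21.1 for regions in no PladB list, 22.1, 23.7 and 27.4 for 1, 2 and 3 lists, and 32.7 for all 4. Most of the 517 therefore had a mixed PladB state, and complete absence was uncommon. Sets near the members also had low shares. All 4 PladB libraries held 36.9% of the regions just outside the choice and 57.7% of those lost in the WT-FOXA1 line alone. They held 32.1% of the 78 regions lost in the C258A-FOXA1 line alone. Neither C258A-FOXA1 PladB library held 13.5%, 5.25% and 16.7% of these sets, in the same order.

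Within the weakest decile, which holds most of them, the 517 still had fewer PladB peaks than other eligible regions of that decile, with a mean share over the 4 libraries of 58.3% against 74.3%. In the next decile it was 75.0% against 87.8%, in decile 3 79.6% against 95.3%, and in deciles 4 and 5, with 6 and 7 members, 91.7% and 96.4% against 98.5% and 99.8%. Among peaks that were called, the median summit held 12 and 14 reads in the WT-FOXA1 PladB lists and 10 and 10 in the C258A-FOXA1 PladB lists.

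The strongest region with no PladB peak in either line was chr14:92297739-92297953, with 20 and 17 reads with DMSO in the WT-FOXA1 line and 18 and 25 in the C258A-FOXA1 line. It had no peak in any of the 6 parental DMSO and WX-02-23 lists, and among the 15 parental libraries only 2 of PladB 10 nM held it. The next, chr5:132506329-132507005, had a peak in all 15 parental libraries. Its parental summits held 17, 16 and 14 reads with DMSO and 18, 16 and 13 with WX-02-23, which overlap. The other 3 named by the same ranking, chr22:20209311-20209864, chr7:5717680-5717953 and chr19:15982373-15982717, were each held by all 3 parental DMSO libraries and by 2, 1 and 2 of the WX-02-23 libraries. All 5 had a peak in just 1 library without Dox.

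Among regions held by all 4 PladB libraries, 4 of the 5 strongest were also among the 5 strongest overall. The remaining one was chr1:244417338-244417948, whose summits held 11 and 13 reads with PladB in the WT-FOXA1 line and 16 and 9 in the C258A-FOXA1 line, against 18, 16, 20 and 21 with DMSO. At chr6:21559775-21560427 the PladB summits held 15 and 21, then 13 and 14 reads. At chr15:56275914-56276492, which is not in this group, 1 WT-FOXA1 PladB list had no peak, the other had 13 reads, and the C258A-FOXA1 lists had 11 and 22.

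Parental cells carry neither the FOXA1 transgenes nor the overexpressed PHF5A Y36C of the engineered cells, so the 2 kinds of cells differ in both. Whether the parental libraries had a peak took no part in the choice. Their peaks did help set the region bounds, and with regions merged from the engineered lists alone 542 regions met the rule. The 3 parental DMSO libraries held 84.9%, 87.6% and 85.5% of the 517 regions, a mean of 86.0% ± 1.43 (SD, n = 3). The 3 WX-02-23 libraries held 71.6%, 63.6% and 69.1%, a mean of 68.1% ± 4.05 (SD, n = 3). Every WX-02-23 library thus held fewer than every DMSO library, and the means differed by -17.9 percentage points (SE 2.48). Over the other eligible regions the same difference was -0.366 points (SE 0.324), with overlapping libraries. Over the regions lost in the WT-FOXA1 line and kept in the C258A-FOXA1 line it was -5.5 points (SE 1.39). Over those just outside the choice it was -7.02 points (SE 2.15). In both of these sets every WX-02-23 library also lay below every DMSO library. Over the 78 regions lost in the C258A-FOXA1 line alone the difference was -0.427 points (SE 2.26), with overlapping libraries. No p-value is given for such a share, since the regions were chosen, and 3 against 3 libraries cannot go below 0.1 in an exact two-sided permutation test.

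**Figure D2:**
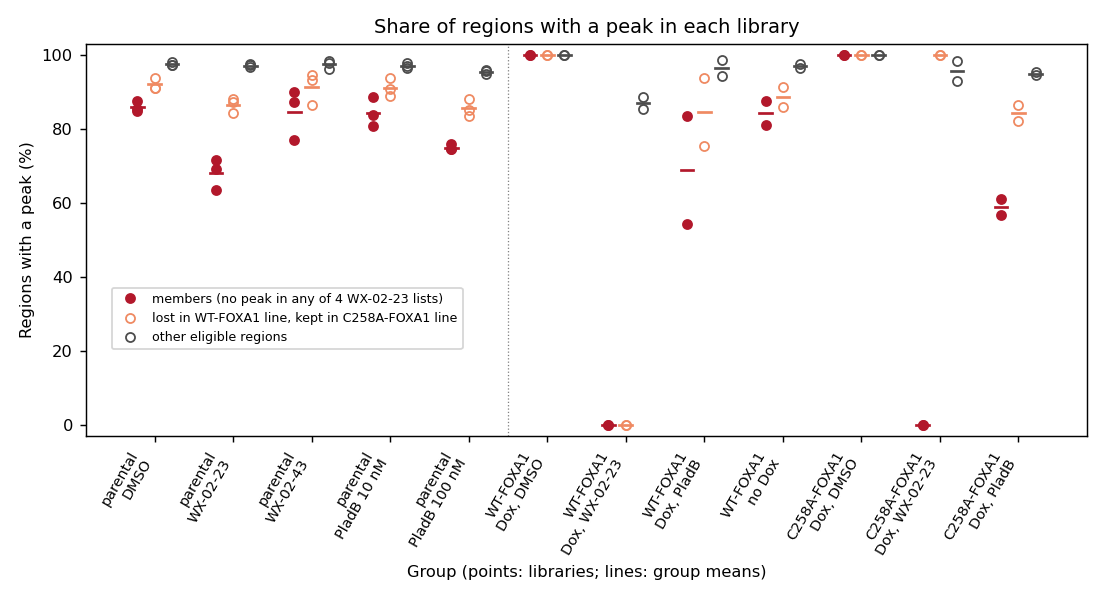
Share of regions with a peak (percent, vertical axis) in each library by group, with group means as lines, for the 517 regions (filled), regions lost in the WT-FOXA1 line and kept in the C258A-FOXA1 line (open orange) and other eligible regions (open grey). The values of 0% and 100% in the DMSO and WX-02-23 groups with Dox are set by how the sets were chosen for the filled and orange points. So are the 100% values of the grey points with DMSO and Dox. For the 517, parental WX-02-23 (63.6% to 71.6%) lies below parental DMSO (84.9% to 87.6%).

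The other parental treatments were compared with the same 3 DMSO libraries. The stereoisomer WX-02-43 left 87.2%, 89.9% and 77.0% of the 517 with a peak, a difference of -1.29 points (SE 4.03) from DMSO. PladB at 10 nM left 88.6%, 83.8% and 80.9%, a difference of -1.61 points (SE 2.4). Both groups overlapped DMSO. PladB at 100 nM left 74.5%, 76.0% and 74.5%, all below DMSO, a difference of -11.0 points (SE 0.971). Over the other eligible regions PladB at 100 nM also lay below DMSO in every library, by -2.02 points (SE 0.431). Those PladB lists had 82538 to 87426 peaks and a relative depth of 0.662 to 0.734, against 91632 to 98193 peaks and 0.881 to 1.0 with DMSO, and the part of depth in that difference was not tested. The parental WX-02-23 lists had 93866 to 97445 peaks and a relative depth of 0.923 to 1.12. The part of depth and list length in their difference from DMSO was not tested either.

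WX-02-23 and WX-02-43 are stereoisomers, given at the same dose for the same time, and they form the 1 pair of related compounds here. The WX-02-23 mean was 16.6 points below the WX-02-43 mean, a difference of -16.6 (SE 4.59), and each WX-02-23 library held a smaller share than each WX-02-43 library. Among the 369 regions of the 517 held by all 3 WX-02-43 libraries, 39 (10.6%) were in no WX-02-23 library, against a background of 0.398% of eligible regions. In the opposite direction, of 279 held by all 3 WX-02-23 libraries, 0 were absent from all 3 of WX-02-43, against a background of 0.0857%. Of 280 held by all 12 parental libraries without WX-02-23, 20 (7.14%) were in none of the 3 WX-02-23 libraries, against a background of 0.149%.

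The parental difference was also read within deciles of strength. In the weakest decile the parental WX-02-23 libraries held on average 66.5% of the 366 members and 89.4% of the other 4680 eligible regions, where DMSO held 83.0% and 89.8%. In the next decile WX-02-23 held 70.0% and 92.9% where DMSO held 91.3% and 93.4%, and in decile 3 it held 67.5% and 96.1% where DMSO held 96.5% of each. The 6 members in decile 4 and the 7 in decile 5 had a peak in every DMSO and every WX-02-23 library, so there the members showed no difference in presence, and the other eligible regions held 97.2% and 98.4% with WX-02-23. Since the choice required absence after WX-02-23 in 4 libraries, members can still be weaker than others within a decile.

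Of the 517, all 3 parental DMSO libraries held 383, and these were followed through each treatment. With WX-02-23, 42 of the 383 (11.0%) had no peak in any of the 3 libraries, against a background of 0.428% among eligible regions and 2.02% among all regions held by the 3 DMSO libraries. All 3 WX-02-23 libraries kept 254 (66.3%, background 97.3%), and the remaining 87 were partly held. The same count of complete losses, from the same DMSO libraries, was 2 (0.522%) with WX-02-43, against 0.0354% of eligible and 0.609% of all regions. It was 4 (1.04%) with PladB at 10 nM, against 0.0936% and 0.918%, and 13 (3.39%) with PladB at 100 nM, against 0.428% and 2.69%. All 3 libraries kept 330 (86.2%, background 97.9%) with WX-02-43, 345 (90.1%, background 97.7%) with PladB at 10 nM and 299 (78.1%, background 95.1%) with PladB at 100 nM. If 1 of the 6 libraries was allowed to go against the rule, the WX-02-23 count was 90. Among regions just outside the choice, 46 of the 1262 held by all 3 parental DMSO libraries (3.65%) had no parental WX-02-23 peak. Among those lost in the WT-FOXA1 line alone it was 56 of 1821 (3.08%), and among those lost in the C258A-FOXA1 line alone 0 of 66.

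**Figure D3:**
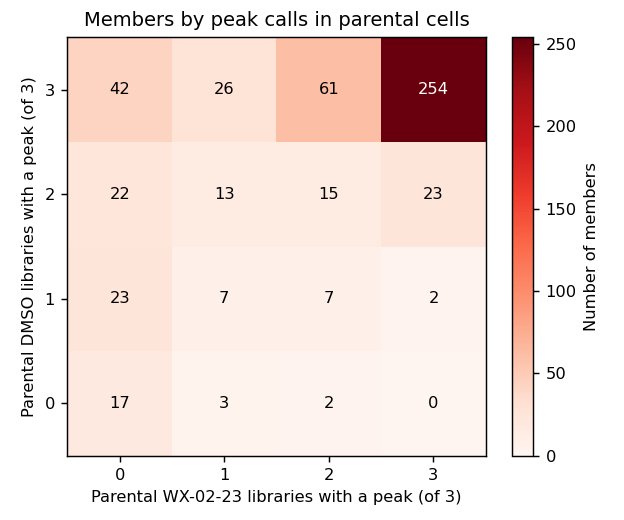
Number of the 517 regions by how many of the 3 parental DMSO libraries (vertical axis) and of the 3 parental WX-02-23 libraries (horizontal axis) held them; darker cells hold more regions. The top right cell holds the 254 regions kept in all 6 libraries and the top left cell the 42 held by every DMSO library and no WX-02-23 library.

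At the low end, 22 of the 517 (4.26%) were in no parental DMSO list, against 1.02% of other eligible regions. All 15 parental lists held 219 (42.4%), against 88.6%. The 42 lost in parental cells were no weaker in the engineered DMSO lists than the 254 kept there, with median percentiles of 28.6 and 27.0. All 4 engineered PladB libraries held 14 of the 42 (33.3%) and 64 of the 254 (25.2%). None of the 42 and 4 of the 254 lacked a peak in all 4 PladB libraries.

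The 5 strongest of the 42 show what these losses look like in reads. At chr1:191907795-191908187 the parental summits held 22, 24 and 26 reads with DMSO, 17, 23 and 20 with WX-02-43, 20, 19 and 22 with PladB at 10 nM and 16, 18 and 10 with PladB at 100 nM. No WX-02-23 library had a peak there, in parental or engineered cells, while all 4 engineered PladB libraries did, with 17, 20, 14 and 17 reads. At chr3:119294341-119294711 the parental DMSO summits held 24, 31 and 27 reads and the WX-02-43 summits 28, 35 and 22. This was the tallest of the 5 in parental DMSO cells, and it too had no peak in the 3 WX-02-23 lists.

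The region chr10:51767462-51768261 had 16, 17 and 16 reads with DMSO and 19, 18 and 14 with WX-02-43, and chr10:77521952-77522482 had 13, 23 and 18 against 14, 14 and 11. Both had peaks in all 12 parental libraries without WX-02-23. The weakest in parental cells was chr13:107240146-107240482, with 14, 12 and 11 reads with DMSO, and 1 library each of WX-02-43 and PladB at 10 nM also lacked a peak there. In the engineered DMSO lists these 5 held 11 to 25 reads.

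The 5 strongest of all 517 were at the same time the 5 strongest of the 254 kept in parental cells, so their summits could be followed there. At chr12:6198050-6198728 the parental summits held 42, 48 and 46 reads with DMSO and 30, 24 and 31 with WX-02-23. With WX-02-43 they held 48, 53 and 42, and with PladB 44, 36 and 42 at 10 nM and 36, 41 and 33 at 100 nM. The peak was thus called in all 15 lists, and the 3 WX-02-23 values were the lowest of the 15.

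At chr6:21559775-21560427 the summits held 74, 71 and 66 reads with DMSO, 34, 33 and 26 with WX-02-23 and 73, 87 and 74 with WX-02-43. PladB at 100 nM gave 49, 43 and 33 there, between DMSO and WX-02-23 with some overlap with the latter. At chr15:56275914-56276492 the values were 27, 29 and 21 with DMSO and 12, 11 and 12 with WX-02-23. At chr19:13101989-13102492 they were 34, 40 and 40 against 19, 21 and 22, and at chr9:131564752-131565322 they were 39, 35 and 34 against 25, 17 and 22. In all 5 regions no WX-02-23 value reached the lowest DMSO value.

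**Figure D4:**
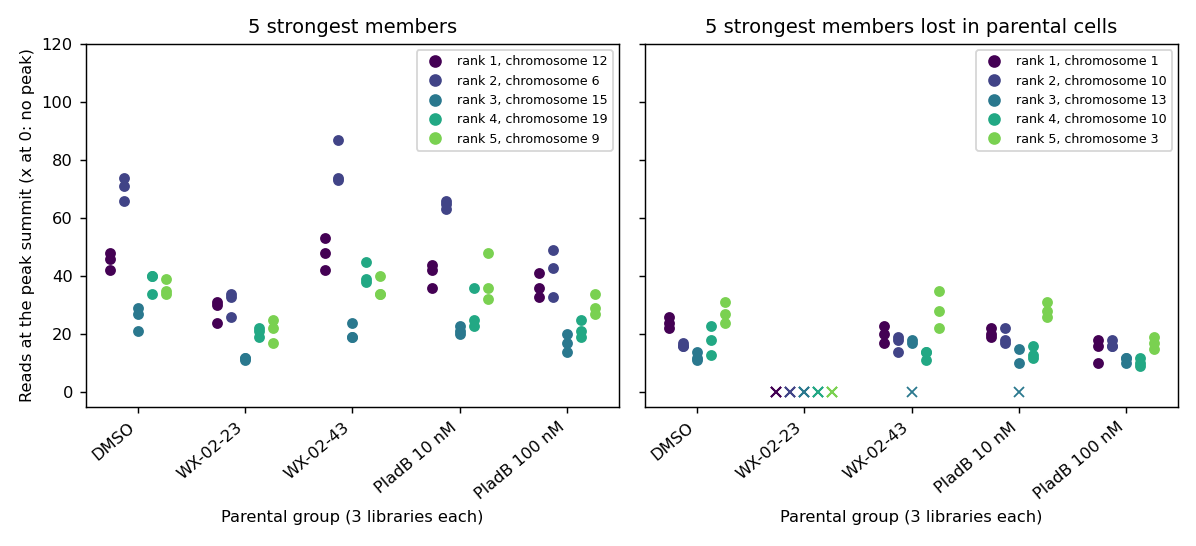
Reads at the peak summit (vertical axis) in each parental library by treatment for the 5 strongest of the 517 regions (left) and the 5 strongest with a peak in all 3 parental DMSO and no parental WX-02-23 library (right), coloured by rank, with a cross at 0 where a list had no peak. On the left the WX-02-23 points lie below the DMSO points of the same region, as at chromosome 6 with 34, 33 and 26 against 74, 71 and 66, and on the right all WX-02-23 marks are crosses.

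The lower reads in these named regions were seen first, and a test over all regions was then added, so it is not independent of them. It used the 54404 regions with a peak in all 15 parental libraries, 219 of the 517 among them, took log2 of the summit reads, centred each library on its median region, and fitted limma over all 15 libraries with Benjamini-Hochberg adjustment over all 54404. A region that lost its peak in any library is outside this test, so the 219 are the members that stayed detectable and not all of them. With WX-02-23 against DMSO, 77 of the 219 (35.2%) passed at an adjusted p under 0.05 with fewer reads, against a background of 5.41%, and 0 passed with more reads, against a background of 3.78%. At an unadjusted p under 0.05, 105 were lower (47.9%) and 2 higher (0.913%), against 11.3% and 9.81% of all regions tested. The median difference over the 219 was -0.36 on the log2 scale, with the middle 50% between -0.70 and -0.13, and 185 estimates (84.5%) were below 0. The other eligible regions tested had a median of 0.01 with 5.4% lower, and the regions lost in the WT-FOXA1 line alone a median of -0.14 with 252 of 1280 (19.7%) lower.

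Without any centring, the picture in reads was alike. The median summit of the 219 held 23, 25 and 23 reads in the DMSO libraries and 21, 17 and 18 in the WX-02-23 libraries, while that of the other eligible regions held 37, 40 and 38 against 43, 38 and 38. All 3 WX-02-23 values lay below all 3 DMSO values in 77 of the 219 (35.2%), against a background of 5.86%. In the same libraries the median summit of other eligible regions was thus level with DMSO or taller. The same full separation below DMSO was seen in 6 of the 219 (2.74%, background 0.875%) with WX-02-43, in 16 (7.31%, background 5.99%) with PladB at 10 nM and in 99 (45.2%, background 39.6%) with PladB at 100 nM, whose lists had the lowest parental depth.

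The other treatments gave few or no calls among the 219 at an adjusted p under 0.05. With WX-02-43 against the same DMSO libraries, limma called 0 lower and 0 higher (backgrounds 0.0496% and 0.00184%), and the median was -0.06. Of 20 at an unadjusted p under 0.05 (9.13%, background 7.37%), 19 were lower (8.68%, background 4.47%) and 1 higher (0.457%, background 2.9%). Estimates with WX-02-43 were below 0 for 143 of the 219 (65.3%), against 54% of all regions tested. With PladB at 10 nM limma called 0 and 0 (backgrounds 0.165% and 0.0974%), and the median was -0.03. Of 21 at an unadjusted p under 0.05 (9.59%, background 9.72%), 14 were lower (6.39%, background 5.27%) and 7 higher (3.2%, background 4.45%). With PladB at 100 nM limma called 12 lower (5.48%, background 2.11%) and 6 higher (2.74%, background 7.66%), with a median of -0.03 where all tested regions had 0.07. Here 32 were lower (14.6%, background 6.11%) and 12 higher (5.48%, background 17.8%) at an unadjusted p under 0.05. Compared directly, WX-02-23 was lower than WX-02-43 in 65 of the 219 (29.7%, background 4.21%) and higher in 0 (background 3.3%), with a median of -0.29. At an unadjusted p under 0.05, 92 were lower (42%) and 4 higher (1.83%), against 9.32% and 9.96% of all regions tested. These comparisons share libraries with each other, so their calls are not independent.

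**Figure D5:**
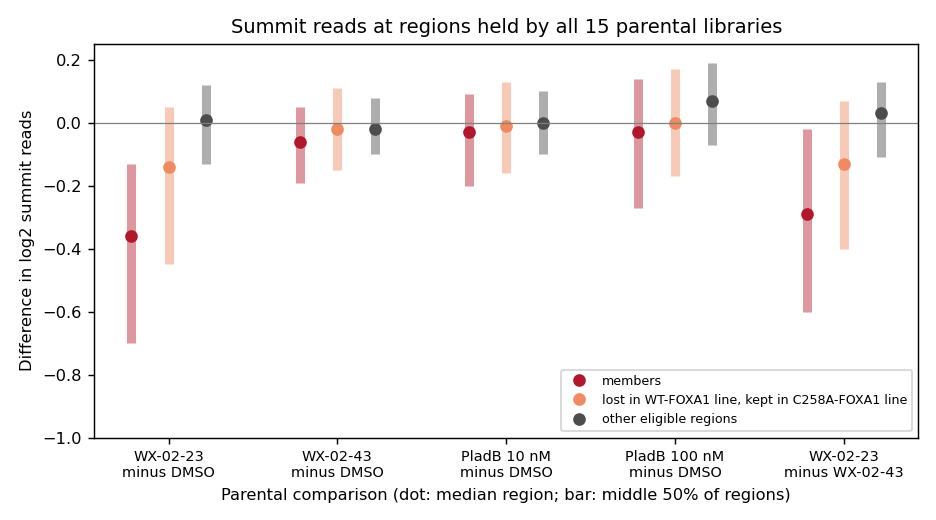
Difference in log2 summit reads between parental groups (vertical axis) over regions with a peak in all 15 parental libraries, as the median region (dot) and the middle 50% of regions (bar), for the 219 members tested, the 1280 regions lost in the WT-FOXA1 line alone and the other eligible regions. For WX-02-23 minus DMSO the members' median is -0.36 against 0.01 for the other eligible regions, and for WX-02-43 minus DMSO it is -0.06.

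Stronger members were called more often. In the weakest decile 28 of 137 tested members (20.4%) were lower with WX-02-23, in the next 22 of 50, and in the third 15 of 19. In deciles 4 and 5 it was 6 of 6 and 6 of 7. Over other eligible regions the called share in these 5 deciles lay between 3.64% and 7%. The median difference of the members went from -0.26 in the weakest decile to -0.96 in decile 5. Deciles 3 to 5 hold fewer than 20 tested members each. Strength was read from lists that the choice used, and a stronger region had to fall further to have no WX-02-23 peak there. Members that lost their peak in any parental library are outside this test. A test on more reads also calls smaller differences. The part of each of these in the rise of the called share and of the median difference was not tested.

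Values for single regions spread widely. Of the 5 strongest, chr6:21559775-21560427 differed most, with -1.28 (SE 0.10, limma adjusted p = 3.55e-19), which is 0.413 of the DMSO reads. The smallest of these 5 differences was at chr12:6198050-6198728, with -0.77 (SE 0.13, limma adjusted p = 1.58e-06), and the other 3 were -1.21 at chr15:56275914-56276492, -0.96 at chr19:13101989-13102492 and -0.86 at chr9:131564752-131565322. Against WX-02-43 the same 5 were also lower, by -1.3 at chr6:21559775-21560427 and -0.71 at chr12:6198050-6198728. With PladB at 100 nM, 2 of the 5 were lower, with -0.44 at chr6:21559775-21560427 (limma adjusted p = 0.00233) and -0.48 at chr19:13101989-13102492 (limma adjusted p = 0.0352).

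Other named regions did not pass. The region chr1:244417338-244417948 had 25, 28 and 19 reads with DMSO and 23, 18 and 15 with WX-02-23, a difference of -0.45 (SE 0.18, limma adjusted p = 0.0991). The weakest 2 had differences of -0.30 at chr9:976535-977514 and 0.13 at chr2:234932189-234932669, and chr5:132506329-132507005, which had no PladB peak in the engineered lines, had -0.09. In each of these the WX-02-23 and DMSO values overlapped.

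Looked up after their values were seen, and so outside the ranking that named the others, the largest differences among the 219 were at chr7:47831218-47831866 and chr9:24819768-24820535. The first had 42, 42 and 44 reads with DMSO, 17, 16 and 15 with WX-02-23 and 47, 51 and 47 with WX-02-43, a difference from DMSO of -1.50 (SE 0.14). The second had 24, 25 and 24 reads with DMSO, 10, 9 and 10 with WX-02-23 and 29, 33 and 27 with WX-02-43, a difference of -1.42 (SE 0.19). A further region, chr5:132591804-132592514, had 39, 44 and 33 against 17, 13 and 18, and it lies in one run with chr5:132506329-132507005, where the reads did not differ beyond their spread.

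Members were scattered over the genome much as other eligible regions were. Their median gap to the nearest other eligible region was 12176 bp, against 12340 bp for other eligible regions. That nearest neighbour was held by all 4 WX-02-23 libraries for 406 of the 517 (78.5%), against 78.1%. The regions lost in the WT-FOXA1 line alone lay further from their neighbours, with a median gap of 16148 bp. Within 100 kb, 28 members (5.42%) had another member, against 5.83% of other eligible regions with a member so near.

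The longest run in which each member lay within 100 kb of the next held 4 members, over chr15:74595324-74782423, among 14 eligible regions in that span. The 12 other runs held 2 members each and 489 members stood alone. By chromosome, the yield was 1.54 members per 100 eligible regions on chromosome 9, the highest, 1.39 on chromosome 15, and 0.698 on chromosome 5, the lowest among the autosomes and X. Chromosome Y had 97 eligible regions and no member. Regions with the opposite behaviour, a peak in all 4 WX-02-23 libraries and in none of the DMSO with Dox or uninduced ones, numbered 137, and 5 members (0.967%) lay within 100 kb of one, against 0.959% of other eligible regions.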

How the data were processed

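ATAC-seq libraries of 22Rv1 cells were aligned with Bowtie2 to hg19 and peaks called with MACS2, per the submitters' processing notes. For their versions, options and read extension, nothing is given in the sources used here. The authors deposited 1 peak list per library, with replicates called separately. Each deposited list gives a score, a fold enrichment over background (a ratio), −log10 of the p-value and −log10 of the q-value per peak. The authors' values served to rank or filter peaks inside each list. Between libraries, only the presence of a peak was compared, apart from the summit reads described next. The lowest −log10 q was at or just above 2 in each deposited list.

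Summit reads and background were recovered from the authors' fold and p-values as the whole number that gives both (tolerance 0.005 in −log10 p), which succeeded for 100% of peaks. The background depends on the unknown extension and serves as a relative depth. Each value carries counting error, and a region without a peak may still be open below detection.

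Groups and replicate numbers came from the labels. The 517 members and all lists of regions were chosen with earlier results of these data known. Regions were named by mean percentile of the p-value over the 4 DMSO with Dox lists: the 5 strongest of all members, of those lost in parental cells, of those kept there, of those with no PladB peak and of those with all 4, and the 2 weakest, 18 distinct regions in all. Presence was described without tests. The limma comparison of summit reads (limma 3.58.1, R 4.3.3, with a mean-variance trend) was added after lower reads had been seen in the named regions. Other values came from Python 3.11.15 with pandas 2.3.3. The scripts were tested on simulated data, the limma step under more than one level of assumed noise, between which its power differed. Alternatives were overlap, q-value, fold, list length, merging, summit windows, the no Dox condition and leaving out libraries. Gene annotation, marker loci of the cell type, motifs and sequences are not analysed here, since no hg19 genome or annotation was used. No pair of lists shared over 0.00215% of peaks with identical bounds and p-value.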

Additional observations from a re-analysis of the deposited data

How the results depend on the processing

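Of 96 alternative values over 13 results, 63 stayed within a set limit and 33 moved. The limit was 1.5 times for counts and the spread between libraries for shares and strength. For the median log2 difference of summit reads it was the width of the middle 50% of regions, 0.57. That is wider than the value itself, -0.359, so staying within it says little. Only the parental share difference and this median difference have a sign that could change, and neither did. The number of regions meeting the rule was 292 with lists of equal length and 419 to 1688 when 1 library was left out. The identity of the members changed more than their number: 130 of the 517 were still members with at least 50% of the region covered, 282 with a q-value of 1e-05 or below, 45 with a fold of at least 6 and 43 with equal lists, and 7, 13, 8 and 9 of the 18 named regions, in the same order. For the 517, the PladB share was 38.7% (50% covered), 29.8% (fold) and 40.4% (equal lists) in the WT-FOXA1 line, with 54.4% to 83.6% by library, and 26.7%, 23.9% and 34.2% in the C258A-FOXA1 line, with 44.9% under the stricter q-value. Parental WX-02-23 minus DMSO was -23.0 points with 50% covered, -22.8 with equal lists and -19.7 to -15.7 without 1 library. Losses in parental cells numbered 90 with 1 exception allowed and 47 to 54 without 1 library. By fold, median strength was 30.3. The cause of these shifts was not tested.

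The summit-read alternatives were chosen after seeing the data. Of the 219 members, 61 were lower with scaling by background and 65 to 74 without 1 library. It was 86 of 254 when only the 6 libraries of the contrast had to hold a region, and 60 of 130 with a median of at least 20 reads, and 0 were higher in each. With the replicate number as a block it was 78. Deviations of same-numbered libraries correlated between -0.025 and 0.027 over 30 pairs, and those of differently numbered ones between -0.034 and 0.032 over 60. No pairing by number was thus seen, but counting error in summit reads could mask a weak one.

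The members' median DMSO summits held 12 to 13 reads, near the 5 to 8 of the lowest summit called, and the part of depth in the presence values was not tested. No test of a share over the chosen members was run, and the labels do not say whether replicates are separate cultures.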
